A study of Mus musculus with 36 samples.

Results

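Lysosomal enzymes and membrane proteins were followed over 8 days of differentiation of female mouse embryonic stem cells (mESCs). The set was a list of 38 genes: soluble hydrolases and their helper proteins, proteins of the lysosomal membrane, progranulin, and the transcription factors Tfeb and Mitf. Members were found by their symbol in the deposited table of 25965 genes, and all 38 had a row. A filter of at least 1 RPM (reads scaled to the size of the library) in at least 4 libraries kept 36 of them among 14612 genes. Ctsh and Ctss did not pass it. Both had 0 reads on day 0 and 2 reads over the 4 libraries on day 8.

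The cells were Xmas mESCs, C57/Bl6 lines in which Hprt carries GFP on one X chromosome and mCherry on the other. All groups came from lines derived with both alleles and differ by no further genetic change in the labels. The study states that such cultures gain cells with a single X over time. On day 0 the cells were in serum-free medium with 2i (inhibitors of MEK and GSK3) and LIF, which hold them in the naive state. They were then moved stepwise into DME HiHi, a serum medium without LIF, in which no lineage is directed, and were plated on gelatin. RNA was collected daily from whole cultures, from day 0 to day 8. There were 4 libraries on each of 9 days, 36 in all, named X14 double, X14 single, X18 double and X18 single. X14 and X18 are the 2 lines. The words double and single are used here only as names, since the labels do not say what they mean. Values listed for 4 libraries are always in that order. Nothing says that the cultures of different days were started separately, so p-values measure only the spread between these samples.

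On day 0 the X14 libraries went against their labels. The median level of 569 X-linked genes minus that of 14042 autosomal genes was 0.70 on the log2 scale in X18 double and -0.47 in X18 single, but -0.78 in X14 double and 0.51 in X14 single. From day 1 to day 8 it lay between -0.02 and 0.57 in all double libraries and between -0.63 and -0.21 in all single libraries. Day means hold both X14 libraries whichever way they are named. Label comparisons used days 1 to 8, and counts against day 0 are given with and without the libraries labelled X14 on day 0.

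Lysosomes are acidic compartments in which proteins, glycans and lipids are broken down. Most of their hydrolases are made in the endoplasmic reticulum, tagged with mannose 6-phosphate and carried to the lysosome by receptors. Many lysosomal genes share a promoter element, the CLEAR element, which is bound by the MiT-TFE family of transcription factors (Tfeb, Tfe3, Mitf and Tfec). Where nutrients are plentiful these factors are held in the cytoplasm. In mESCs, Tfe3 is known for its exclusion from the nucleus as cells leave the naive state, which requires Flcn.

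The core of the CLEAR element, GTCACGTG, was looked for on both strands, from 250 bases before to 50 bases after the start site in RefSeq (GRCm38.p6). Promoters were found for 33 of the 38 members. The element stood in 10 of them (30.3%), against 2.55% of 27025 genes with a promoter and 4.71% of 9967 such genes that passed the filter. Its inner CACGTG, which every GTCACGTG also holds, stood in 13 of 33 members (39.4%), against 8.09% and 11.7%. The 10 members were Ctsa, Ctsd, Lamp1, Glb1, Mcoln1, Naglu, Sgsh, Arsa, Lgmn and Cln3. Windows around 1 match each are given below for 7 of them, chosen because they include the largest rises and an abundant membrane protein. They are read along the gene's strand with the element in capitals, as GTCACGTG or as its reverse complement CACGTGAC. Each lies upstream of the RefSeq start site.
Naglu, chr11:101070009-101070036, plus strand: caaccttcagGTCACGTGgcccgaggtc
Arsa, chr15:89477425-89477452, minus strand: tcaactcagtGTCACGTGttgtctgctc
Sgsh, chr11:119355522-119355549, minus strand: gcctgccgtgCACGTGACcgtggggagc
Mcoln1, chr8:3500436-3500463, plus strand: ggtcgcgcttGTCACGTGttcagttcag
Ctsa, chr2:164833749-164833776, plus strand: tgagcaaactGTCACGTGatgcagatgc
Lgmn, chr12:102439126-102439153, minus strand: tggaatgtctGTCACGTGgtccatttta
Lamp1, chr8:13159123-13159150, plus strand: tgccgactggCACGTGACcacatcacgt

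The centre of the element lay 71 bases before the start site in Naglu, 14 in Arsa, 25 in Sgsh, 69 in Mcoln1, 10 in Ctsa, 47 in Lgmn and 24 in Lamp1. A match is a description of the letters and not a measured binding site.

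The members did not move as a block. Little changed until day 2, more members had fallen than risen by day 4, and most of the rise came after day 4. A gene was called changed where limma gave a Benjamini-Hochberg adjusted p under 0.05 over all genes tested and a log2 change of at least 1. On day 1 and on day 2, 0 of 36 members were called against day 0, where 0.0684% and 2.96% of all genes were. At an unadjusted p under 0.05 there were 1 and 9 members, and 775 and 3504 of all 14612 genes. On day 3, 0 members were called higher and 5 lower, against 5.72% and 3.17% of all genes. On day 4, 3 were called higher and 7 lower, against 12.2% and 6.4%, and after quantile normalization 1 was higher and 9 lower. The median log2 change of the members was then -0.41, and that of all genes 0.12.

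From day 5 the balance turned. On day 5, 11 members were called higher and 5 lower, against 15.8% and 11% of all genes. Day 6 gave the same counts, 11 and 5, against 22.4% and 11%. On day 7, 16 members were higher and 2 lower, against 23.8% and 11.6%. The counts on day 8 were also 16 and 2, against 23.9% and 11.1%. The median change of the members on day 8 was 0.90 and that of all genes 0.23.

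Without the libraries labelled X14 on day 0, all genes were called more often too. Members were then 2 higher and 0 lower on day 1 (5.15% and 0.465% of all genes), 5 and 0 on day 2 (17.9% and 5.37%), 5 and 4 on day 3 (18.1% and 6.8%) and 6 and 6 on day 4 (21.4% and 8.38%). On days 1 to 4 the share of members higher was thus near or below that of all genes. Later there were 14 and 3 on day 5 (22.2% and 11.5%), 15 and 6 on day 6 (29.4% and 12.4%), 20 and 2 on day 7 (30.2% and 12.8%), and 23 and 2 on day 8 (30% and 12.3%). The median of the members on day 4 was then 0.01, where it was -0.41 with all 4 libraries, and on day 8 it was 1.30. This setting keeps only X18 libraries on day 0, with 77.71% (double) and 82.29% (single) of the library divisor in genes. In the X14 libraries of day 0 the share was 88.69% (double) and 87.37% (single). The part of this in the counts was not tested.

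The difference of day 8 from day 4 does not use the day 0 values, though these entered the fit's estimate of the spread. Here 22 of 36 members were called higher and 0 lower, against 15.7% and 9.01% of all genes. The median was 1.24 for the members and 0.10 for all genes. With a filter of a mean of at least 10 RPM, 17 members were called, without Naglu, Sgsh, Galns, Arsb and Mitf. Between neighbouring days, members were called at 3 steps. From day 3 to day 4, 2 were higher and 2 lower (3.33% and 1.7% of all genes). From day 4 to day 5, 9 were higher and 1 lower (4.83% and 5.78%). From day 5 to day 6, 1 was higher and 3 lower (7.14% and 2.59%). At the other steps from day 1 to day 8 limma called 0 members, where 0.0342%, 0.185%, 0.89% and 0.438% of all genes were called. At an unadjusted p under 0.05 there were 3, 6, 9 and 8 members, and 1253, 832, 1753 and 1372 of all 14612 genes.

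**Figure D1:**
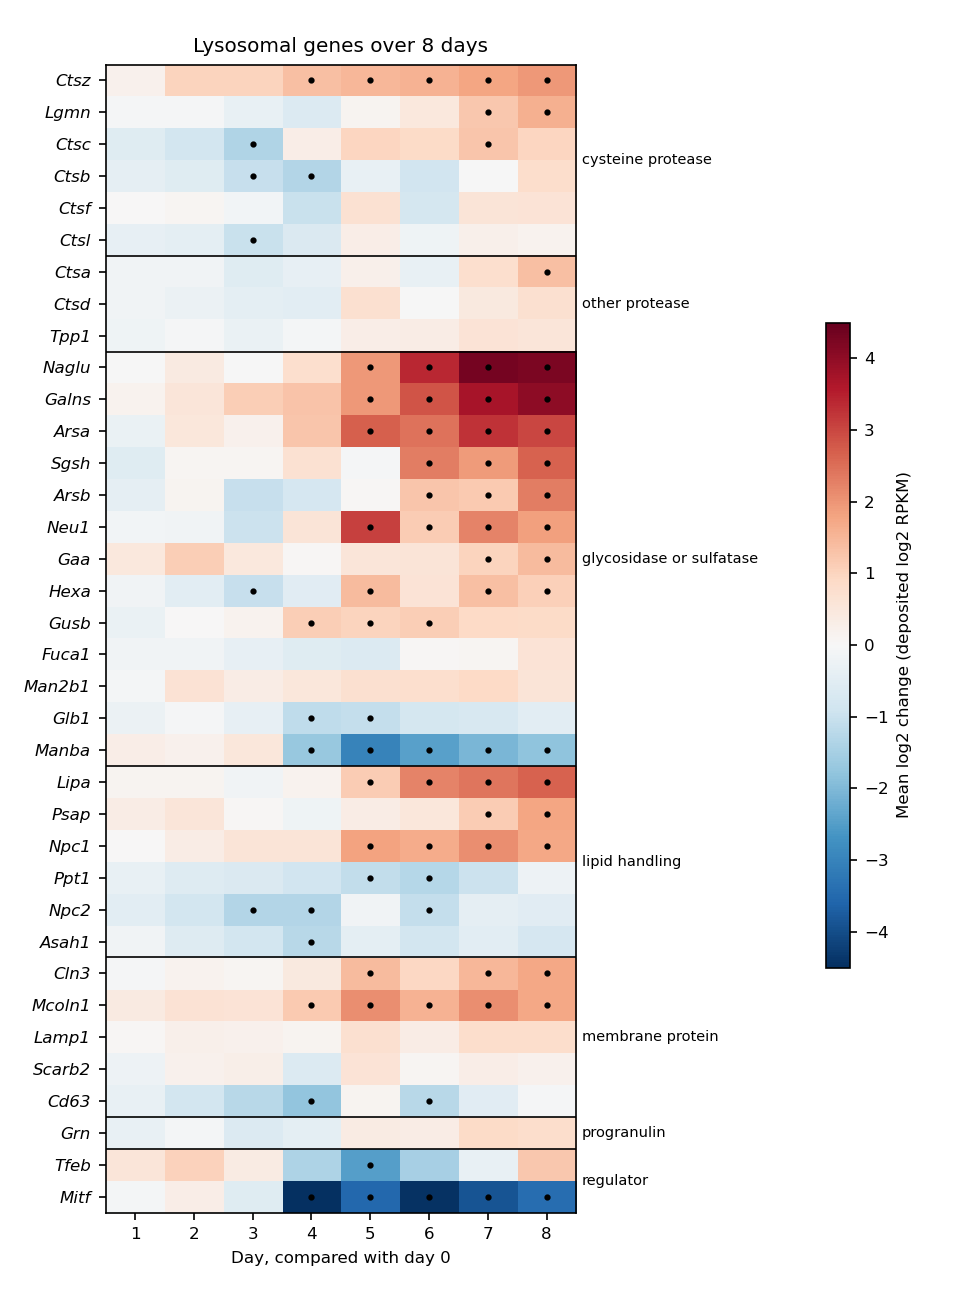
Mean log2 change of the 36 tested members against day 0 (color, from the deposited log2 RPKM) on days 1 to 8, grouped by role, with a dot where limma called the change. Dots of falling members prevail on days 3 and 4, and on day 8 there are 16 higher and 2 lower.

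Glycosidases and sulfatases, which take glycans apart one sugar or sulfate at a time, held the 3 largest rises. On day 8, 8 of 13 were called higher and 1 lower, against 23.9% and 11.1% of all genes. Their median log2 change was 1.43, and that of all genes 0.23. Of the 8, Naglu, Galns, Sgsh and Arsb had 3, 11, 7 and 6 reads pooled on day 0. With a filter of a mean of at least 10 RPM, these members and Mitf were not called on day 8, leaving 13 called of 18. Naglu (mm10 chr11:101070012-101077672), which removes N-acetylglucosamine from heparan sulfate, had 0, 0.348, 0 and 0.321 RPKM on day 0 and 4.10, 5.67, 6.22 and 5.37 RPKM on day 8. The days did not overlap, but day 0 rested on 3 reads in all. Pooled over libraries, reads rose 29.9-fold, with an exact 95% counting interval of 9.90 to 148.1, and the fitted log2 change was 4.24 ± 0.61 (SE, limma adjusted p = 8.5e-07). Counting intervals cover counting error only.

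Galns (chr8:122578238-122611487), a sulfatase of keratan and chondroitin sulfate, had 0.895, 0.358, 0 and 1.32 RPKM on day 0 and 9.64, 10.5, 8.75 and 12.4 RPKM on day 8. Every library of day 8 was above every library of day 0. Its log2 change was 4.04 ± 0.50 (SE, limma adjusted p = 5.58e-08), on 11 reads pooled on day 0 and 157 on day 8. Galns overlaps the feature Gm20388 in the table, so its reads may be shared. Ctsa, Ctsd, Ctsz, Npc1 and Sgsh overlap another feature too.

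Arsa (chr15:89472476-89477425), the sulfatase of sulfated glycolipids, had 4.02, 0.629, 0.559 and 1.39 RPKM on day 0 and 11.1, 8.85, 13.2 and 6.14 RPKM on day 8. The groups did not overlap, and the library labelled X14 double was the highest of day 0. Its log2 change was 3.0 ± 0.67 (SE, limma adjusted p = 0.000425), and 3.42 without the libraries labelled X14 on day 0.

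Sgsh (chr11:119343425-119355536), which removes sulfate from heparan sulfate, had 0.315, 0.315, 0 and 0.193 RPKM on day 0 and 3.65, 2.09, 2.96 and 0.270 RPKM on day 8. X18 single, with 1 read on day 8, lay among the day 0 values, while the other cultures lay above all of them. The log2 change was 2.64 ± 0.68 (SE, limma adjusted p = 0.00201), and without replicate 3, which is X18 double, the adjusted p was 0.0525. The overlapping feature is Card14.

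Of the other enzymes of this group, Arsb, which removes sulfate from dermatan sulfate, rose by a log2 change of 2.31 on 6 reads pooled on day 0 and 37 on day 8. Neu1, the lysosomal sialidase, rose by 1.86, Gaa, which cleaves glycogen, by 1.43 and Hexa, the alpha subunit of beta-hexosaminidase, by 1.06. Gaa was at 0.78 (limma adjusted p = 0.212) without replicate 3 and at 2.49 without the libraries labelled X14 on day 0. Hexa, close to the fold limit, was at 0.89 and not called without replicate 3, nor was it called without replicate 4, which is X18 single, or after scaling to the 75th percentile. The values for Gusb (0.86), Fuca1 (0.62) and Man2b1 (0.56) were not called. Gusb, the beta-glucuronidase, had been called higher on days 4 to 6. Without the libraries labelled X14 on day 0 both Gusb (1.13) and Man2b1 (1.30) were called higher on day 8. Glb1, the beta-galactosidase, was called lower on day 4 (-1.14) and day 5 (-1.09), and was at -0.49 on day 8. On day 4 it was at -0.67 and not called (limma adjusted p = 0.154) without the libraries labelled X14 on day 0, nor was it called without replicate 1, which is X14 double, or without replicate 4.

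Manba (chr3:135485611-135571404), the beta-mannosidase, went the other way. It had 21.0, 24.1, 17.5 and 19.96 RPKM on day 0, and 26.6, 33.3, 22.6 and 36.7 RPKM on day 3. On day 4 it had 9.06, 4.83, 6.06 and 5.79 RPKM, below every library of day 3. The step was a log2 change of -2.23 ± 0.29 (SE, limma adjusted p = 2.24e-06). The lowest values came on day 5, from 2.42 to 2.87 RPKM, and on day 8 there were 10.1, 3.97, 5.62 and 5.29 RPKM. The change from day 0 to day 8 was -1.80 ± 0.29 (SE, limma adjusted p = 4.31e-06).

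**Figure D2:**
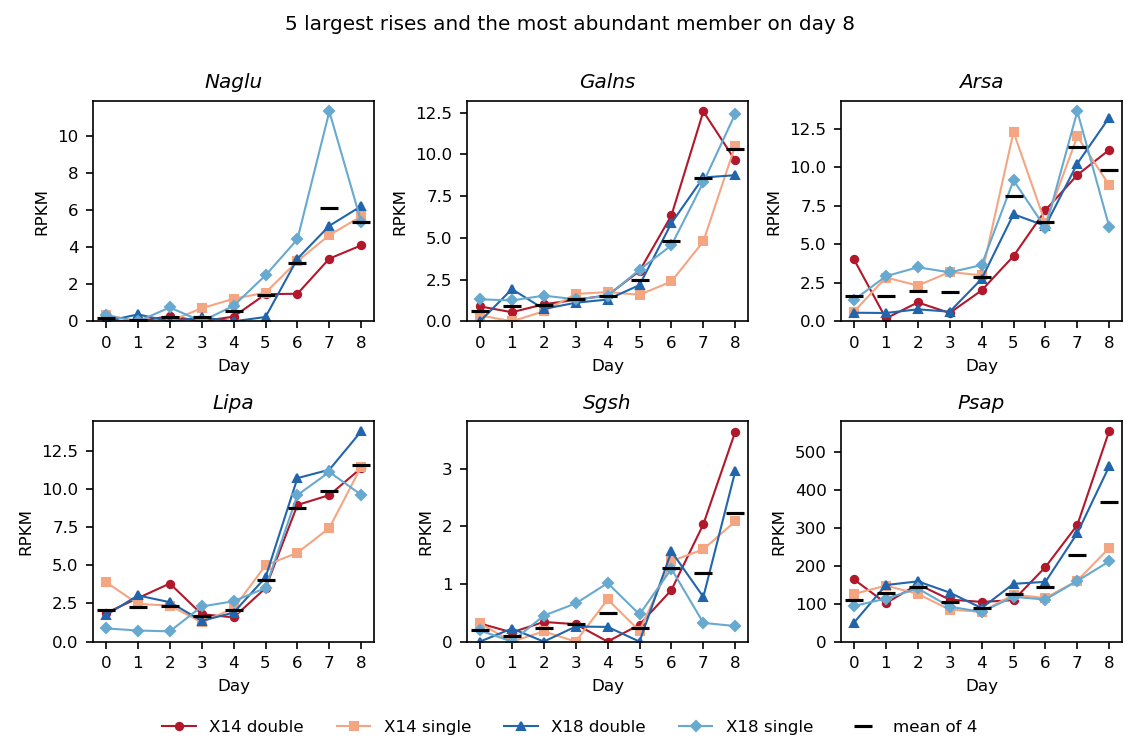
RPKM (linear axis, from 0) by day for the 5 members with the largest called rise from day 0 to day 8 and for Psap, which had the highest mean on day 8. Colored points are the 4 cultures and black bars their mean. Sgsh stays at 0.270 RPKM in X18 single on day 8, and on day 8 Psap is higher in each double than in each single culture.

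Lipid handling genes split. Lipa (chr19:34492318-34527474), the acid lipase that frees cholesterol from its esters, had 1.87, 3.90, 1.73 and 0.863 RPKM on day 0 and 11.4, 11.5, 13.8 and 9.62 RPKM on day 8, without overlap. Its log2 change was 2.66 ± 0.44 (SE, limma adjusted p = 7.34e-06). Psap, the precursor of the saposins that present sphingolipids to hydrolases, rose by 1.78, and Npc1, the membrane protein that passes cholesterol out of the lysosome, by 1.75. Npc2, the soluble partner that hands cholesterol to Npc1, was called lower on day 3 (-1.31), day 4 (-1.33) and day 6, and was at -0.52 on day 8. Asah1, the acid ceramidase, was called lower on day 4 (-1.26), and on day 8 it stood at -0.76, past the adjusted p (0.000147) but short of the fold limit. Ppt1, which removes palmitate from proteins, was called lower on day 5 (-1.11) and on day 6, and was at -0.22 on day 8. Npc1 and Npc2 thus had changes of opposite sign on day 8, though only that of Npc1 was called.

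Among the cysteine proteases, 2 of the 6 tested were called higher on day 8, where 23.9% of all genes were. Ctsz, a carboxypeptidase, rose by 1.94 and had been called from day 4 on. Lgmn, the asparagine endopeptidase, rose by 1.61. Lgmn had 30.3, 36.7, 23.9 and 31.97 RPKM on day 0, from 17.3 to 21.8 RPKM on day 4, and 104, 61.9, 132 and 87.1 RPKM on day 8, when all libraries lay above those of day 0. Ctsb, an abundant endopeptidase, was called lower on day 3 (-1.03) and day 4 (-1.34) and rose by 2.13 from day 4 to day 8, which left it 0.80 above day 0, a difference not called. Ctsl was called lower on day 3 (-1.01), and Ctsc, the activator of serine proteases of granules, on day 3 (-1.34). On day 8 Ctsc (0.95), Ctsf (0.60) and Ctsl (0.17) were not called, but Ctsc (1.42) and Ctsf (1.16) were without the libraries labelled X14 on day 0. Of the other proteases, Ctsa, which also shields Neu1 and the beta-galactosidase, rose by 1.35, and was at 0.82 and not called without replicate 3. Neither Ctsd (0.71), the aspartic protease, nor Tpp1 (0.55), a tripeptidyl peptidase, was called.

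Of 5 membrane proteins, Cln3 and Mcoln1 were called higher on day 8, where 23.9% of all genes were. Cln3, a protein lost in juvenile Batten disease, rose by 1.75, and Mcoln1, the calcium channel TRPML1, by 1.72. Mcoln1 had 7.66, 6.82, 1.89 and 2.62 RPKM on day 0 and 12.4, 10.7, 8.12 and 6.19 RPKM on day 4. Its day 8 values, from 8.03 to 18.5 RPKM, lay above all of day 0. Lamp1, the main glycoprotein of the membrane, was at 0.79 on day 8, and at 1.01 and called without the libraries labelled X14 on day 0. Scarb2, the receptor that carries beta-glucocerebrosidase, was at 0.21. The tetraspanin Cd63 was called lower on day 4 (-1.78) and was back at -0.06 on day 8. Grn, progranulin, which is cut into granulins in the lysosome, was at 0.79 on day 8 and not called with all libraries.

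By time, Ctsz and Mcoln1 were the members called higher on day 4 and on every later day. Both day 4 calls rested on replicate 3, X18 double. Without it Ctsz was at 0.94 (limma adjusted p = 0.0654) and Mcoln1 at 0.86 (limma adjusted p = 0.162). Gusb was also called higher on day 4, and without replicate 3 as well (1.14), though not without replicate 4, and it was not called on days 7 and 8. With all libraries, from day 5 on, Naglu, Galns, Arsa, Lipa, Neu1 and Npc1 stayed called higher. Sgsh and Arsb joined on day 6, Psap, Cln3, Lgmn, Gaa and Hexa on day 7, and Ctsa on day 8. Cln3 and Hexa had also been called on day 5 but not on day 6. The order by size was another one, with Naglu, Galns and Arsa at the top.

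By level, the leaders were other genes again. Levels are means of RPKM, which is per length. On day 0 Ctsd (157 ± 33.4 SD, n = 4), Lamp1 (156 ± 31.4) and Ctsl (145 ± 31.2) stood highest, and these neighbours differed by less than their SD. On day 8 Psap was at 368 ± 166 RPKM (SD, n = 4), Lamp1 at 276 ± 83.9, Ctsd at 266 ± 97.0 and Ctsl at 163 ± 32.6. The gap of Psap to Lamp1 was smaller than the SD of Psap. On day 8 Naglu had 5.34 ± 0.898 RPKM and Galns 10.3 ± 1.57 RPKM, so the largest folds belonged to enzymes of low level. Psap on day 8 had 555, 246, 462 and 211 RPKM, and each double library was above each single one.

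Members with and without the element in the promoter were among those called higher on day 8. Of the 10 members with GTCACGTG, 7 were called higher, and of the 23 with a promoter but without it, 7 were. Of all genes, 23.9% were called higher. Ctss, one of the 23, was not tested. Ctsd, Lamp1 and Glb1 hold the element and were not called. Neither Mitf nor Manba, both of which fell, holds it. The part of the element in any of these changes was not tested.

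Tfeb and Mitf are both activators of lysosomal genes. On day 8 Mitf was called lower than on day 0 and Tfeb was not called. From day 4 to day 8 both were called higher. They are counted among the 22 of 36 members called higher then, where 15.7% of all genes were. The part of Tfeb and Mitf in the changes of other members was not tested. Mitf (chr6:97807058-98021349) had 3.57, 2.24, 1.65 and 4.95 RPKM on day 0 and 2.47, 1.97, 3.06 and 0.942 RPKM on day 3. On day 4 it had 0 reads in all 4 libraries, against 124 reads on day 0. With a floor of 3 reads over the group this is at least 42.1-fold lower. On day 8 it had 0.334, 0.313, 0 and 0.383 RPKM, below every library of day 0, and the pooled ratio to day 0 was 0.0873 (exact 95% counting interval 0.0408 to 0.166). The limma log2 change on day 8 was -3.42 ± 0.53 (SE, adjusted p = 3.59e-06). The rise of Mitf from day 4 to day 8 (limma adjusted p = 0.0201) rested on 0 and 10 reads, at least 3.68-fold with the same floor, and was not called without replicate 1, 2 or 4.

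Tfeb (chr17:47737030-47792419) fell and returned. It had 9.06, 4.82, 2.54 and 2.56 RPKM on day 0 and 8.64, 8.78, 9.29 and 7.01 RPKM on day 2. On day 5 it had 0.688, 0.726, 1.65 and 0.368 RPKM, and every library was below every library of days 0 to 3. The log2 change from day 0 was -2.47 ± 0.64 (SE, limma adjusted p = 0.00272). On day 8 it had 24.5, 7.46, 16.0 and 2.94 RPKM. Both double cultures lay above all of day 0, and both single cultures lay within its range. Against day 0 the log2 change was 1.23 and not called, but with the replicate number as a block it passed (limma adjusted p = 0.0437). The block pairs day 0 by label, and the X14 libraries of day 0 went against theirs. Without the libraries labelled X14 on day 0 the change was 1.92. From day 4 to day 8 the rise was 2.63 ± 0.64 (SE, limma adjusted p = 0.00165).

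Tfe3, which is not in the set, had 6.50, 9.35, 3.77 and 2.67 RPKM on day 0 and 26.9, 19.98, 26.4 and 15.1 RPKM on day 4, with no overlap. On day 4 it was up by 2.11 ± 0.39 (SE, limma adjusted p = 0.000126), and on day 8 by 1.31. Tfe3 is X-linked. RNA level says nothing of whether a factor is in the nucleus. On day 4, when Mitf had no read and Tfeb was at 1.79 ± 0.975 RPKM (SD, n = 4), Tfe3 was at 22.1 ± 5.60 RPKM.

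**Figure D3:**
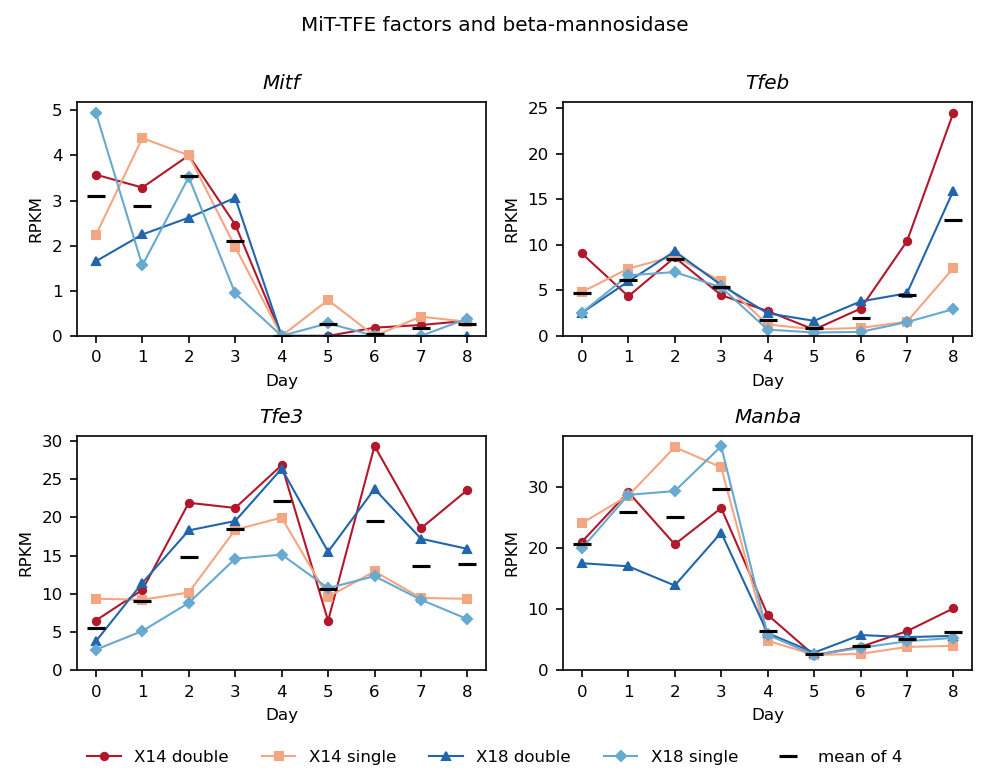
RPKM (linear axis, from 0) by day for Mitf, Tfeb, Tfe3 and Manba in the 4 cultures (colored points) with their mean (black bars). Mitf is at 0 in all libraries of day 4, Manba falls at the same step, and Tfeb separates into higher double and lower single cultures by day 8.

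Day 5 stood out for a group of members. The comparison of each culture's day 5 value with the mean of its own day 4 and day 6 values was chosen after the values were seen, as were the limits counted, so it is given without a test. In all 4 cultures 18 of 36 members were above on day 5, and 3 were below, against 13.5% and 22.2% of all genes. Mitf, one of the 18, had no read in 2 of the day 5 libraries. Above by at least 0.5 on the log2 scale in all cultures were 8 members (3.66% of all genes), and by at least 1 there were 3 (1.2%). The median difference was 0.42 for the members and -0.10 for all genes.

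The 3 members were Neu1, Cd63 and Hexa. Neu1 had 3.06, 5.37, 4.53 and 10.8 RPKM on day 4, 41.8, 24.9, 28.1 and 27.7 RPKM on day 5, and 8.33, 6.61, 8.70 and 7.97 RPKM on day 6. Day 5 was above both neighbouring days in every culture, and above day 8 too, when the highest value was 16.6 RPKM. The limma step was 2.49 ± 0.38 up (SE, adjusted p = 2.54e-05) and then -1.93 ± 0.38 (SE, adjusted p = 0.000728). Hexa had 25.6, 18.04, 27.5 and 28.6 RPKM on day 4, 115, 87.8, 97.1 and 77.1 RPKM on day 5, and 53.4, 48.3, 67.8 and 46.9 RPKM on day 6. Its rise of 1.93 was called, and its later change of -0.80 was not.

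Cd63 had 35.9, 16.9, 34.4 and 22.3 RPKM on day 4, 198, 73.4, 87.2 and 70.4 RPKM on day 5, and 56.5, 25.1, 47.6 and 30.1 RPKM on day 6. X14 double was far above the others on day 5, and without it the rise was 1.55 (limma adjusted p = 0.0224) in place of 1.90. Members also called higher at this step were Ctsf (1.66), Npc1 (1.24), Scarb2 (1.22), Ctsd (1.18), Npc2 (1.16) and Ctsb (1.01), and Manba was called lower (-1.29). Of these, Ctsf (-1.46) was called lower again on day 6, as were Neu1 and Cd63 (-1.36). Without X14 double on day 5, Ctsb (0.91) and Npc2 (0.99) fell short of the fold limit.

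The 3 members below on day 5 in all cultures were Sgsh, Tfeb and Manba. Tfeb and Manba were below each of the neighbouring days in every culture. Sgsh had 8 reads on day 5, against 15 on day 4 and 31 on day 6, and in X14 double it had 1 read on day 5 and 0 on day 4. The share of the library divisor that lay in genes was from 79.65% to 85.41% on day 5, from 85.64% to 87.38% on day 4 and from 88.74% to 89.18% on day 6. The part of this in the day 5 values was not tested. X14 double of day 5 was also the shallowest library, with 612740 reads in genes. The other libraries reached up to 2445826 (median of all 1297944), and 3 reads were worth 1.04 to 3.90 RPM.

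**Figure D4:**
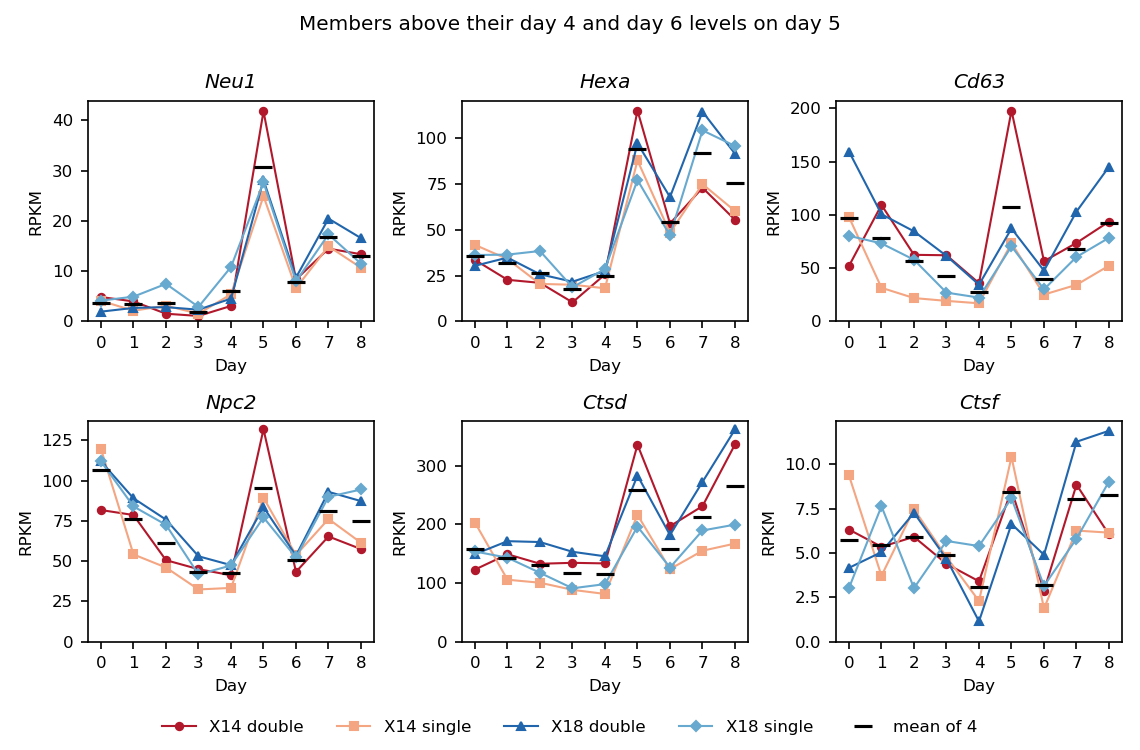
RPKM (linear axis, from 0) by day for Neu1, Hexa, Cd63, Npc2, Ctsd and Ctsf in the 4 cultures (colored points) with their mean (black bars). Day 5 is above days 4 and 6 in every culture for each of them.

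The cultures named double and single differed for some members. Over days 1 to 8, with day and line in the limma fit, 3 of 36 members were called, 2 higher and 1 lower in double, where 2.93% and 1.61% of all genes were. Tfeb was higher in double by 1.10 ± 0.25 (SE, adjusted p = 0.0017) and in 11 of 16 pairs of the same day and line. Of these 11 pairs, 4 were in X14 and 7 in X18. The 16 pairs come from lines X14 and X18 followed over days 1 to 8, so they may not be independent. In X14 alone Tfeb was at 0.76 (limma adjusted p = 0.211), and in X18 alone at 1.44 (limma adjusted p = 0.0262). Cd63 was higher by 1.0 ± 0.12 (SE, adjusted p = 4.74e-07) and in 16 of 16 pairs. In X14 alone Cd63 was at 1.33 (limma adjusted p = 3.37e-05), and in X18 alone at 0.68 (limma adjusted p = 0.000873). Without X14 double of day 5 it was at 0.94, also short of the fold limit, as in X18 alone. Arsa was lower in double by a log2 difference of -1.02 ± 0.26 (SE, adjusted p = 0.00457), and in 12 of 16 pairs. In X14 alone Arsa was at -1.16 (limma adjusted p = 0.0885), and in X18 alone at -0.88 (limma adjusted p = 0.163). All 3 sat close to the fold limit. On the recovered reads with voom, Cd63 was at 0.98, Tfeb at 0.82 and Arsa at -0.44 with an adjusted p of 0.0932, so none of them passed the fold limit there and Arsa also missed the adjusted p.

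By adjusted p alone there were 13 members (22.6% of all genes), 9 higher and 4 lower in double. Ctsd (0.60, 16 of 16 pairs), Lamp1 (0.50, 15 of 16) and Ctsb (0.48, 16 of 16) were higher in double. Over the 16 pairs the difference ran from 0.26 to 1.01 for Ctsd, from -0.12 to 0.85 for Lamp1 and from 0.13 to 1.16 for Ctsb. Psap (0.46), Mcoln1 (0.38), Ctsa (0.33) and Grn (0.33) were also higher. The lower ones, beside Arsa, were Naglu (-0.82), Ctsc (-0.59, lower in 15 of 16 pairs) and Gusb (-0.40). Naglu was near the floor early, with 1, 4, 5 and 10 reads over the 4 libraries on days 1, 2, 3 and 4. On day 0 the X14 pair had the opposite sign to the mean of the later days for Cd63 (-0.91), Ctsd (-0.72), Lamp1 (-0.29), Ctsb (-0.28), Arsa (2.68), Ctsc (0.92) and Gusb (0.19). It had the same sign for Tfeb (0.91), Psap (0.38), Mcoln1 (0.17), Ctsa (0.16), Grn (0.10) and Naglu (-1.15, from 0 and 2 reads). The X18 pair of day 0 had the same sign as the later days for Cd63 (0.99), Arsa (-1.32), Ctsc (-1.78) and Gusb (-0.17). It had the opposite sign for Ctsa (-1.48), Psap (-0.91), Mcoln1 (-0.47), Ctsb (-0.29), Grn (-0.13), Ctsd (-0.04), Lamp1 (-0.02), Tfeb (-0.01) and Naglu (0.12).

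The label difference shifted with time for 2 members by the call rule (4.09% of all genes) and for 5 by adjusted p alone (5.84%). The shift is the double minus single difference on days 5 to 8 minus that on days 1 to 4, tested as an interaction in limma. Arsa moved by 1.78 ± 0.41 (SE, adjusted p = 0.00901), from a mean difference of -1.91 early to -0.13 late. Tfeb moved by 1.68 ± 0.40 (SE, adjusted p = 0.0107), from 0.26 to 1.94. Without day 3 neither was called, and the count ran from 0 to 3 when each day was left out. Neu1 (0.95), Ctsa (0.76) and Ctsz (0.71) shifted the same way by adjusted p alone. Between lines X14 and X18, limma called 0 members (0.0137% of all genes were). At an unadjusted p under 0.05 there were 9 members, and 1552 of all 14612 genes. For the shift of the line difference limma called 0 members and 0% of all genes. At an unadjusted p under 0.05 there were 2 members, and 680 of all 14612 genes.

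**Figure D5:**
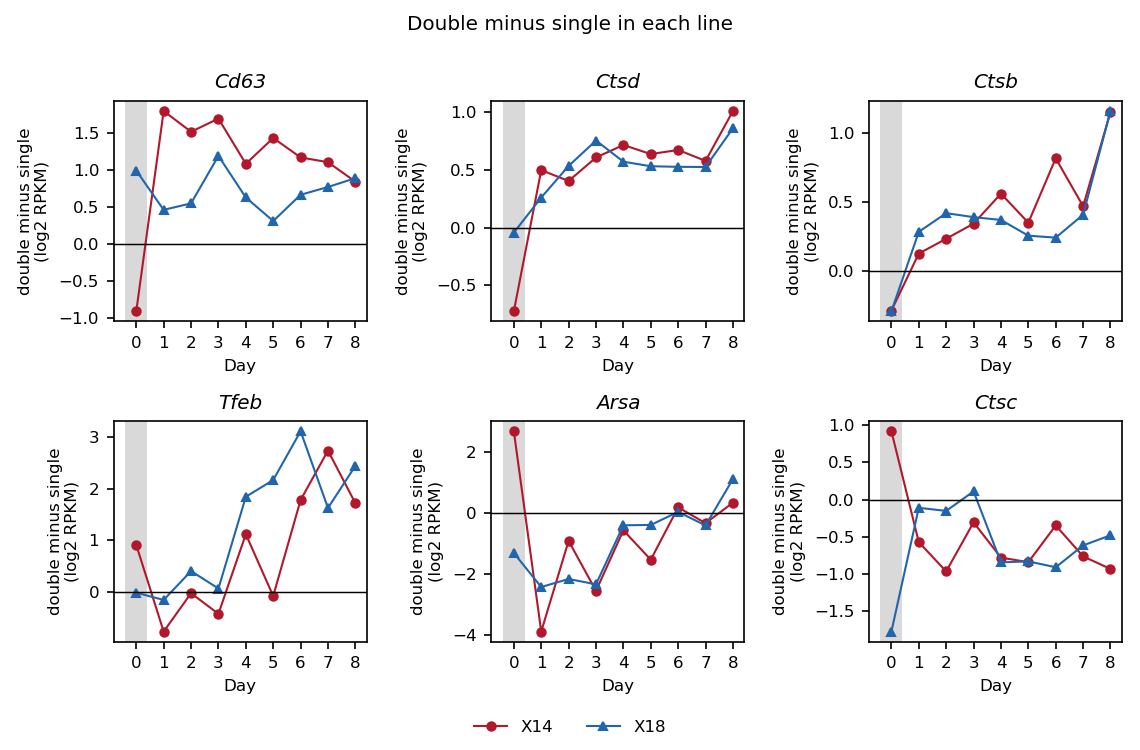
Difference double minus single in log2 RPKM by day for Cd63, Ctsd, Ctsb, Tfeb, Arsa and Ctsc in X14 (circles) and X18 (triangles), with 0 as a line and day 0, where the X14 libraries went against their labels, in gray. Cd63, Ctsd and Ctsb are above 0 in both lines on each of days 1 to 8, and Tfeb reaches a mean of 1.94 on days 5 to 8.

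Other genes of the pathway were counted from lists, to be read against the 23.9% of all genes called higher and 11.1% called lower on day 8. On day 8, 10 of 21 further hydrolases and membrane proteins were called higher and 2 lower, with a median of 0.92. The rises included Smpd1, the acid sphingomyelinase (3.26), and Cd68 (2.38). Ctso, a cysteine protease, rose from 0 reads on day 0 to 39 on day 8. The nuclease Dnase2a was among those called lower (-1.93). Lamp2, X-linked and related to Lamp1, was lower on day 4 (-1.96) and at 0.14 on day 8.

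Of 16 subunits and accessory proteins of the proton pump, which acidifies the lysosome, limma called 0 higher on day 8 and 1 lower, Atp6v1a (-1.21), with a median of 0.02. Atp6v0d1 (0.92, adjusted p = 0.000999) and Atp6v1d (0.61, adjusted p = 0.0116) passed the adjusted p but not the fold limit. From day 4 to day 8, Atp6ap1 (1.26) and Atp6v1g1 (1.02) were called higher and 0 lower, with a median of 0.23, where 15.7% and 9.01% of all genes were. The pump and the hydrolases were not compared by a test. Of 7 sorting genes 1 was called. Sort1, a receptor that brings hydrolases and Psap to the lysosome, had 2.88, 1.10, 0 and 2.26 RPKM on day 0 and 26.0, 19.3, 20.4 and 14.6 RPKM on day 8, with a log2 change of 4.35 ± 0.80 (SE, limma adjusted p = 4.23e-05). The mannose 6-phosphate receptors M6pr (0.18) and Igf2r (0.57) were not called.

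Of 15 regulators tested, 4 were called higher on day 8 and 1 lower, against 23.9% and 11.1% of all genes. The higher ones were Tfe3, Rragc (1.45), Tsc1 (1.32) and Fnip2 (1.26), and the lower one Rragb (-1.63). Flcn, which works with the Fnip proteins, was at 0.48. Of 14 autophagy genes 7 were called higher and 2 lower. Wipi1 rose by 2.52 and the cargo receptor Sqstm1 by 1.46, and Gabarapl2 fell by 2.65 on the log2 scale. Of 3 protease inhibitors 0 were called, and the 8 placental cathepsins had 0 reads in every library.

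Cell type markers moved over the same days. In bulk samples, fewer cells of a type and less RNA per cell cannot be told apart. Calls of markers on day 8 are to be read against 23.9% of all genes higher and 11.1% lower. Summed over 8 genes, naive mESC markers went from between 3432 and 4524 RPM on day 0 to between 307 and 691 RPM on day 8. Of these, 8 of 8 were called lower. Trophoblast markers went from between 3.08 and 13.7 to between 332 and 648 RPM, with 2 of 8 at 0 reads on day 8. Of 5 tested 4 were called higher, and Krt7 alone had a mean of 364 RPM on day 8. Parietal endoderm markers went from between 423 and 747 to between 916 and 1265 RPM, with 0 of 6 at 0 reads on day 8. Of these 4 were called higher, while Sparc had means of 573 RPM on day 0 and 564 RPM on day 8. Fibroblast markers went from at most 8.80 to between 67.9 and 107 RPM, with 0 of 7 at 0 reads and 5 of 6 tested called higher. Visceral endoderm markers reached between 29.6 and 75.8 RPM, from at most 11.1 RPM, with 5 of 12 at 0 and 2 of 6 tested called higher. Neural markers were between 94.6 and 157 RPM on day 0 and between 58.3 and 93.3 RPM on day 8, with 1 of 5 at 0. They moved both ways, with 1 called higher and 2 lower. Nes went from a mean of 14.5 to 44.0 RPM, and Tubb3 from 84.1 to 17.6 RPM. Macrophages are rich in lysosomal enzymes. Of their 9 markers 7 had 0 reads on day 8, among them Ptprc, Tyrobp and Lyz2, and the 2 with reads were Csf1r and Cd68. The markers summed to between 4.11 and 21.3 RPM on day 0 and between 33.3 and 90.5 RPM on day 8, and both Csf1r (2.40) and Cd68 (2.38) were called higher, of 3 tested. The part of any of these cell types in the rise of the lysosomal genes was not tested.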

How the data were processed

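RNA-seq libraries of 36 Xmas mESC cultures, 4 on each of 9 days, were used. In the study, single-end reads of 75 bp passed through trim_galore, an alignment to mm10 (tophat or hisat2) and the RNA-seq quantitation of SeqMonk. The submitters' processing notes name TopHat2 2.0.12. The annotation version and strand setting are not given in the sources used here, so reads of overlapping genes cannot be told apart. The authors deposited log2 values. These are log2 RPKM, since low values scale with exon length, and a gene with no read was written as 0.9 read. With this rule 100% of the values came out as whole reads (tolerance 0.02), and these reads gave depth, RPM and counting intervals.

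Differences were tested on the deposited log2 values by limma 3.58.1 with its trend option (R 4.3.3), with the Benjamini-Hochberg adjustment over 14612 genes that had at least 1 RPM in at least 4 libraries. Day comparisons had day as the only factor in all 36 libraries. Label and line were fitted together with day on days 1 to 8, and their shift with time as an interaction of days 5 to 8 against days 1 to 4. Called means an adjusted p under 0.05 and a log2 change of at least 1. Values per library were named for the 5 largest called rises and the called falls from day 0 to day 8, and for Tfeb and Mitf. Values of other genes shown per library were chosen after they were seen. The members and lists were chosen with earlier results of these data known. Single values of some listed genes are not reported here. The fit was tested on simulated data. Replicate numbers name one line and label on every day. Over all days, deviations from the day means correlated on average by 0.09 to 0.17 between libraries of the same number. Between other numbers it was -0.06 to -0.03. On days 1 to 8 alone these were 0.14 to 0.18 and -0.06 to -0.05. Deviations are from the mean of the same 4 libraries, so values for other numbers largely follow from those for the same number.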

Additional observations from a re-analysis of the deposited data

Results flagged for a closer look

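In 324 groups of 4 libraries (36 members on 9 days), 14 held a library farther from the others than Dixon's limit allows. Chance flags about 1 in 20 groups, which is more than were found. In log2 RPKM, the low libraries were Ctsa on day 0 in X18 double (3.36) and on day 1 in X14 double (3.61), Ctsc on day 2 in X14 double (0.303), Hexa on day 1 in X14 double (4.5), Gusb on day 7 in X14 single (3.06), Npc1 on day 3 in X18 single (2.19) and on day 5 in X14 double (2.54), Npc2 on day 6 in X14 double (5.44), Lipa on day 1 in X18 single (-0.462, on 2 reads), Naglu on day 0 in X14 double (-2.67, at 0 reads) and Manba on day 1 in X18 double (4.09). The high ones were Npc1 on day 1 in X14 single (2.75), Manba on day 5 in X18 double (1.52) and Arsb on day 0 in X14 single (-1.52, on 3 reads). For Npc1 on day 5 the other cultures lay between 4.01 and 4.26, and X14 double had 48 reads.

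In 5 members the difference between double and single cultures changed from days 1 to 4 to days 5 to 8 by the interaction test of limma (adjusted p under 0.05). The change was 0.76 for Ctsa, 0.71 for Ctsz, 0.95 for Neu1, 1.78 for Arsa and 1.68 for Tfeb, all toward higher values in double.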

How the results depend on the processing

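Of the single-member values under all settings, 2309 kept direction and call, 76 lost the call, 49 gained it and 33 changed sign. Leaving out each replicate, the members called ran from 0 to 2 on day 2, 2 to 5 on day 3, 9 to 12 on day 4, 12 to 16 on day 5, 14 to 18 on day 6, 15 to 19 on day 7 and 14 to 22 on day 8, and stayed at 0 on day 1. The median on day 8 ran from 0.68 to 1.06. The same range was 17 to 22 for day 8 against day 4, 2 to 5 for day 4 against day 3, 8 to 11 for day 5 against day 4 and 2 to 3 for day 6 against day 5. Without replicate 3, Ctsa, Gaa, Hexa and Sgsh lost the day 8 call. Without the X14 libraries of day 0 the members called were 2 on day 1, then 5 on day 2, then 9 on day 3 and 25 by day 8, and 1 for day 7 against day 6. With no fold limit it was 2 on day 2, 8 on day 3, 1 for day 7 against day 6, 13 for label and 5 for its shift. Using only the days compared gave 3 on day 3 and 1 for day 7 against day 6. For that step, scaling to the 75th percentile gave 1, quantile normalization 2 and log2(RPM + 1) 1.

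The replicate numbers name the same line and label on each day, but on day 0 the X14 libraries went against their labels. Numbers 1 and 2 may thus not pair day 0 with later days. With the replicate number as a block the count was 1 on day 2 and 1 for day 7 against day 6. The blocked fit also called Galns (1.29) and Tfeb (-1.40) on day 4, Tfeb (1.23) on day 8 and Mitf (1.49) from day 4 to day 5. For label, log2(RPM + 1) and voom gave 0, and leaving out X14 double of day 5, all 36 libraries, X14 alone and X18 alone gave 1 each. Leaving out days gave 1 to 3, and 0 to 3 for the shift, for which all 36 libraries gave 1.

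Scaling moved the median of all genes on day 8 from 0.23 as deposited to 0.02 (75th percentile) and -0.09 (quantile), with 15 and 18 members higher and 2 lower in each. Sign changes touched values that were not called in the main comparison. On day 4, Gaa turned to -0.058 (75th percentile), -0.18 (quantile) and -0.15 (voom), and Lipa to -0.14 (quantile). Without the X14 libraries of day 0, Psap turned to 0.34, Grn to 0.082 and Tpp1 to 0.19. Leaving out replicates gave day 4 ranges of -0.47 to 0.51 for Gaa, -0.32 to 0.50 for Lipa, -0.041 to 0.76 for Ctsc, -0.046 to 0.34 for Lamp1 and -0.27 to 0.094 for Tpp1. On day 8, Ctsl turned to -0.032 (75th percentile) and Cd63 to 0.18 (quantile), with ranges without single replicates of -0.36 to 0.23 for Cd63 and -0.052 to 0.49 for Scarb2. From day 4 to day 5, Gusb turned to 0.0088 (quantile), and Fuca1 to 0.047 (75th percentile), 0.032 (quantile) and 0.0070 (voom). Without X14 double of day 5 they were at 0.22 and 0.14. Ranges over leaving out each replicate, or X14 double of day 5, were -0.25 to 0.22 for Gusb and -0.26 to 0.14 for Fuca1. They were -0.010 to 0.30 for Ctsz and -0.14 to 0.24 for Glb1. From day 4 to day 8, Man2b1 turned to -0.030 (75th percentile) and -0.045 (quantile), with a range of -0.028 to 0.29. The cause of these changes was not tested.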
